A study of Rattus norvegicus with 12 samples.

Results

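The 8 genes described here are the Schwann cell and myelin genes Prx, Mag, Pmp22, Mbp, Cnp, S100b, Sox10 and Ngfr, chosen by name from the 16511 genes of the deposited count table. They were followed in all 12 libraries of the study, each made from 1 whole snap-frozen mammary gland of a rat aged 21 postnatal days (PND21), with 1 gland per litter. In 6 glands, the HFB group, the offspring had been exposed before birth to a high fat butter diet. In the other 6, the CTL group, the diet was the control AIN diet. Tissue and groups are those of the labels. The paper ties the series to epithelia laser-microdissected from HBF and HBF + BPA offspring, which the labels do not name, so HFB minus CTL is a diet comparison only as far as the labels hold. The labels give no genotype, transgene or other agent for either group, and the design text gives the end of the exposure in conflicting ways, so the window of exposure is left as unknown. Libraries are named by diet and by the number in their label, 1 to 6 for HFB and 7 to 11 and 14 for CTL. Levels are CPM, read counts per gene brought to a library total of 1000000 after TMM normalization, and since no transcript lengths were used, levels are compared between libraries and not between genes.

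Schwann cells are the glia of peripheral nerves. Those around large axons wrap them in compact myelin, a stack of membrane held together by a small set of abundant proteins, while non-myelinating Schwann cells ensheathe bundles of thin axons and carry Ngfr, S100b and Sox10 without a myelin sheath. The mammary gland receives sensory and sympathetic fibres that run with its vessels and ducts, so a whole gland holds some nerve among its fat, epithelium and stroma. Several of these genes also have well-known sources outside nerve, since S100b is made by fat cells, Sox10 by mammary epithelium, and Pmp22 and Cnp in many tissues.

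The labels were first checked against genes that define the cells. Of 24 other Schwann and peripheral myelin genes, 22 were in the table, and those with the highest mean CPM included Gap43 (growth cone protein), Egr2 (transcription factor of myelinating Schwann cells), Mal (myelin and lymphocyte proteolipid) and Gldn (gliomedin, of the node of Ranvier). Egr2 was counted in every library, between 5.82 and 45.9 CPM. Cdh19, a Schwann cell cadherin, had 0 counts in all libraries. The summed level of the 22 genes was 99.0 to 184 CPM in HFB and 132 to 353 CPM in CTL, where CTL 14 alone set the upper limit and the highest of the other 10 libraries, outside CTL 14 and HFB 6, was at 199 CPM. Of the 7 listed genes of oligodendrocytes, the myelinating glia of the brain and spinal cord, Opalin and Gpr17 were at 0 counts. The summed level of the 7 was at most 5.58 CPM in any library. Mog was counted in every library, at 0.409 to 3.15 CPM, from 48 counts in all. The 11 neuronal genes summed to 12.1 to 29.9 CPM, with Tubb3, a tubulin that other cells also make, at 7.58 to 22.9 CPM. Prph reached 12.4 CPM in HFB 6 and Stmn2 reached 6.66 CPM in CTL 14, while Rbfox3, Nefl and Elavl4 had 0 counts in all libraries. The melanocyte genes Tyr and Tyrp1 also had 0. A melanosome protein gene, Pmel, was nevertheless at 57.4 CPM in HFB 6 and 42.0 CPM in CTL 14, against at most 7.67 CPM in the other 10 libraries. In tissue counted as a whole, fewer cells of a type and less RNA per cell cannot be told apart.

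Libraries CTL 14 and HFB 6 stood apart from the other 10. Marker scores, the mean log2 CPM of a list, were 9.64 and 9.75 for adipocyte genes in these libraries, against 11.03 to 11.33 elsewhere. The lymphoid score was 6.85 and 6.68, against 0.54 to 4.87 elsewhere, with HFB 1 at 4.87 and HFB 2 at 3.86. The fibroblast score was 9.75 and 10.01, against 10.49 to 10.98 elsewhere. The endothelium score was highest in CTL 14 at 6.16, with HFB 6 at 5.34 and the other 10 libraries at 4.66 to 5.74. Its 4 genes did not move together. Pecam1 was at 239 CPM in CTL 14 and 255 CPM in HFB 6, against 27.3 to 60.3 CPM elsewhere. Emcn was also above its range elsewhere in both. Cdh5 was at 27.3 CPM in CTL 14 and 2.79 CPM in HFB 6, against 5.39 to 46.9 CPM elsewhere, and Tek was within its range in both. Total counts lay between 2320267 and 2944680, and 3 counts, taken as the smallest detectable level, came to 0.944 to 1.30 CPM. That limit covers counting error only.

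Promoter sequences are shown for Prx and Mag, which were highest in CTL 14, for Cnp, which was high in CTL 14 and HFB 6, and for S100b, which was lowest in these libraries. They come from RefSeq (GRCr8, a later build than the rn4 build named for the counts), and 6 of the 8 genes matched. Each window runs from 250 bases before to 50 bases after the start of the transcript, on the gene's own strand, at chr1:91914171-91914470 (+) for Prx, chr1:95290995-95291294 (-) for Mag, chr10:86011254-86011553 (+) for Cnp and chr20:12381032-12381331 (-) for S100b. Capitals mark matches on either strand to ACAAAG or ACAATG, cores that Sox proteins such as Sox10 can bind. These motifs do not overlap each other in the windows shown.
Prx: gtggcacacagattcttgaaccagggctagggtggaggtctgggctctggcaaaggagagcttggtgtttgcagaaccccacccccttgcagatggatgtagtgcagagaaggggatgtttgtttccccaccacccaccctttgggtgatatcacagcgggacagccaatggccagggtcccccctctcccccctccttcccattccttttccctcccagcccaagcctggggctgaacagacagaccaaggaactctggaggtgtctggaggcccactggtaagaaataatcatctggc
Mag: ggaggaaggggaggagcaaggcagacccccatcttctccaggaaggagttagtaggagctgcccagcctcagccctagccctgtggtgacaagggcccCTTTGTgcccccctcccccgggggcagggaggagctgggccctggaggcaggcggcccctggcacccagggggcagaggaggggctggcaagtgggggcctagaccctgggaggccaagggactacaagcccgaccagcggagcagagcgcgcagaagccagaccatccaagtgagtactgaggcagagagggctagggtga
Cnp: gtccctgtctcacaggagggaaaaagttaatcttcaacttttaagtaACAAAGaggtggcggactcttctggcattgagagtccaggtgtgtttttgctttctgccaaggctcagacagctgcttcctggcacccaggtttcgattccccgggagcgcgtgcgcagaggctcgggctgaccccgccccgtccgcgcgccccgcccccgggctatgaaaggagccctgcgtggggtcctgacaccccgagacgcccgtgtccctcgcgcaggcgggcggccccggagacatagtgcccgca
S100b: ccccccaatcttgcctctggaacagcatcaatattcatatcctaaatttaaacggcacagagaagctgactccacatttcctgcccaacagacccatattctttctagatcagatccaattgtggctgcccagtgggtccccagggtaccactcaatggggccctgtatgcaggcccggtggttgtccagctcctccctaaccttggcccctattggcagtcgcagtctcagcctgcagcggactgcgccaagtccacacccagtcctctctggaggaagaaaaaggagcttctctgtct

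Mag and Cnp held 1 match each, and the windows of Prx, S100b and Pmp22 held none. Mbp has a pair of windows in this set, on chromosome 18, of which the upstream one held 0 matches and the downstream one 3. At least 1 match was present in 29.1% of all 33469 windows of this length and at least 3 in 0.977%, and a match describes the letters only. The Cnp window was rich in CpG, with 24 of these pairs against a median of 7 over all windows. The upstream and downstream Mbp windows held 19 and 13, the Mag window 6 and the S100b window 5, while the Prx and Pmp22 windows held 1 each.

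The comparison of the diets asks whether the HFB exposure went with a different level of these genes at PND21. None of the 7 genes that passed the filter on low counts differed between the diets (edgeR quasi-likelihood test, Benjamini-Hochberg adjusted p = 0.999 for each). The groups overlapped for all 8. Over all genes tested 0 of 9382 were called at an adjusted p under 0.05 (0%), and DESeq2 and limma also called 0. At an unadjusted p under 0.05 edgeR called 220 genes (2.34%), DESeq2 271 and limma 613, and none of the 7 was among the genes called by any of these tools. Groups that did not overlap were seen for 10 genes (0.107%).

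**Figure D1:**
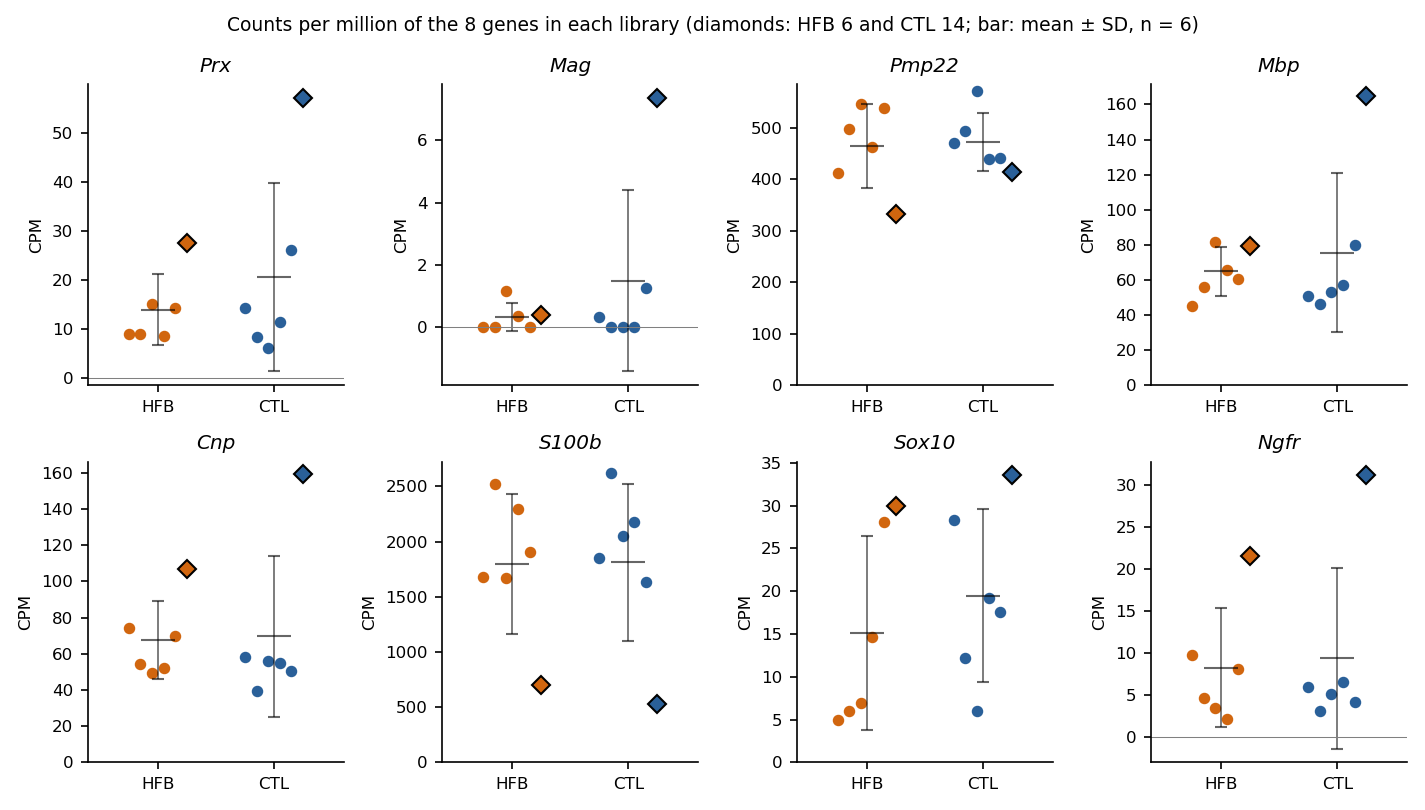
CPM (y axis, linear, 1 scale per panel) of each of the 8 genes in the 6 HFB and 6 CTL libraries (x axis). Points are libraries, diamonds are HFB 6 and CTL 14, and the bar is the mean with its SD. CTL 14 is the highest library for Prx, Mag, Mbp, Cnp, Sox10 and Ngfr and the lowest for S100b, and Pmp22 stays between 333 and 572 CPM.

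Among the structural genes of compact myelin, Mbp (Entrez 24547) encodes myelin basic protein, which binds the inner faces of the membrane together. Mbp ranged from 45.0 to 81.8 CPM in HFB with a median of 63.3, and from 46.4 to 165 CPM in CTL with a median of 55.0. The means were 64.8 ± 14.1 CPM (SD, n = 6) in HFB and 75.3 ± 45.3 CPM (SD, n = 6) in CTL. A single control gland, CTL 14, held the highest value, and the next ones, HFB 3, CTL 11 and HFB 6, lay close together at 81.8, 80.0 and 79.3 CPM. The log2 fold change (HFB minus CTL) was -0.22 ± 0.30 (SE; 95% interval -0.87 to 0.43; edgeR adjusted p = 0.999). Without CTL 14 it was 0.18 (edgeR adjusted p = 0.745), so the direction rests on that gland.

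Prx (Entrez 78960) encodes periaxin, a scaffold of myelinating Schwann cells that links the sheath to its basal lamina. Its values were 8.55 to 27.5 CPM in HFB (median 11.6) and 6.05 to 57.1 CPM in CTL (median 12.8). CTL 14 was again highest, followed by HFB 6 at 27.5 CPM and CTL 11 at 26.0 CPM, while the remaining 9 libraries were at or under 15.1 CPM. Means were 13.9 ± 7.27 CPM (SD, n = 6) in HFB and 20.5 ± 19.2 CPM (SD, n = 6) in CTL, and 13.2 ± 7.79 CPM in CTL without library 14. Between the diets the log2 fold change was -0.56 ± 0.52 (SE; 95% interval -1.67 to 0.55; edgeR adjusted p = 0.999), and 0.09 (adjusted p = 0.936) without CTL 14.

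Mag (Entrez 29409), myelin-associated glycoprotein, sits on the innermost turn of myelin, facing the axon. It was the only one of the 8 near the limit of detection, with 30 counts in all, 5 in HFB and 25 in CTL, and did not pass the filter. CTL 14 held 21 of the 30 counts, at 7.36 CPM, and HFB 3 and CTL 11 held 3 each. In 6 libraries it had 0 counts, and in the remaining 3 it had 1. A two-sided exact permutation test on CPM over all assignments of 6 libraries against 6 gave p = 0.532, where the smallest p the design allows is 0.0022. Outside CTL 14 Mag did not exceed 3 counts, the limit of detection used here, so no fold is given.

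Pmp22 (Entrez 24660), peripheral myelin protein of compact myelin that fibroblasts and epithelia also make, had the lowest coefficient of variation of the 8. It ranged from 333 to 546 CPM in HFB (median 481) and from 415 to 572 CPM in CTL (median 456). Over 12 libraries the coefficient was 14.3%, against 46.3% for Mbp and 83.1% for Prx. HFB 6 was its lowest library and CTL 9 its highest, and CTL 14 lay at 0.881 of the median of the other 11. Its log2 fold change was -0.02 ± 0.14 (SE; 95% interval -0.33 to 0.29; edgeR adjusted p = 0.999). This interval was the narrowest of the 7, and it leaves room for a difference of 0.33 on the log2 scale.

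Cnp (Entrez 25275) encodes the enzyme 2',3'-cyclic nucleotide phosphodiesterase, found in the uncompacted parts of myelin and made at lower levels by other cells. It ranged from 49.3 to 107 CPM in HFB (median 61.9) and from 39.7 to 159 CPM in CTL (median 55.4). CTL 14 and HFB 6 were the highest libraries, followed by HFB 1 at 74.1 CPM and HFB 5 at 69.6 CPM. CTL 11, which was among the highest for Prx and Mbp, was at 50.3 CPM. For Cnp the log2 fold change was -0.04 ± 0.32 (SE; 95% interval -0.74 to 0.66; edgeR adjusted p = 0.999). Without CTL 14 it was 0.40 (unadjusted p = 0.080 and adjusted p = 0.688, edgeR), and the 6 HFB libraries then had a mean of 67.7 ± 21.6 CPM against 51.8 ± 7.34 CPM in the remaining 5 controls.

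Ngfr (Entrez 24596), the low-affinity neurotrophin receptor p75 of non-myelinating and immature Schwann cells and of some stromal and basal cells, was read from 281 counts in all. It ranged from 2.14 to 21.5 CPM in HFB (median 6.38) and from 3.15 to 31.2 CPM in CTL (median 5.58). The order at the top was that of Cnp, with CTL 14 first, HFB 6 second, HFB 1 at 9.82 CPM and HFB 5 at 8.08 CPM. CTL 14 was 6.01 times the median of the other 11 libraries, and the 9 libraries below HFB 1 lay at or under 8.08 CPM. The log2 fold change was -0.19 ± 0.64 (SE; 95% interval -1.57 to 1.19; edgeR adjusted p = 0.999), and 0.73 (adjusted p = 0.692) without CTL 14.

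Sox10 (Entrez 29361), the transcription factor that specifies Schwann cells and switches on Mbp and Egr2, also marks progenitor and secretory lineages of gland epithelium. It ranged from 4.91 to 29.9 CPM in HFB (median 10.8) and from 6.05 to 33.6 CPM in CTL (median 18.4). HFB 1, HFB 2, CTL 9 and HFB 3 were lowest, at 4.91 to 6.98 CPM, and CTL 14, HFB 6, CTL 7 and HFB 5 were highest, at 28.1 to 33.6 CPM, with the remaining 4 at 12.2 to 19.2 CPM. In contrast to Cnp and Ngfr its coefficient of variation was as large without CTL 14 and HFB 6 (61.5%) as with them (60.8%). Its log2 fold change was -0.37 ± 0.50 (SE; 95% interval -1.46 to 0.71; edgeR adjusted p = 0.999), and 4 of 6 HFB libraries lay under the CTL median. Leaving out CTL 14 gave -0.14, and leaving out CTL 14 and HFB 6 gave -0.46 (edgeR adjusted p = 0.926 and 0.919). With limma and sample quality weights it was -0.96 (limma adjusted p = 0.778).

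S100b (Entrez 25742), a calcium-binding protein used to stain Schwann cells that is also abundant in fat cells, was lowest in the libraries where Prx, Cnp, Ngfr and Sox10 were highest. It ranged from 699 to 2522 CPM in HFB (median 1797) and from 533 to 2620 CPM in CTL (median 1954). HFB 6 and CTL 14 held the lowest values, and the other 10 libraries lay between 1638 and 2620 CPM. CTL 14 was 0.279 times the median of the other 11. The log2 fold change was -0.01 ± 0.35 (SE; 95% interval -0.77 to 0.75; edgeR adjusted p = 0.999). It was -0.20 without CTL 14 and -0.03 without CTL 14 and HFB 6 (edgeR adjusted p = 0.800 and 0.983).

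**Figure D2:**
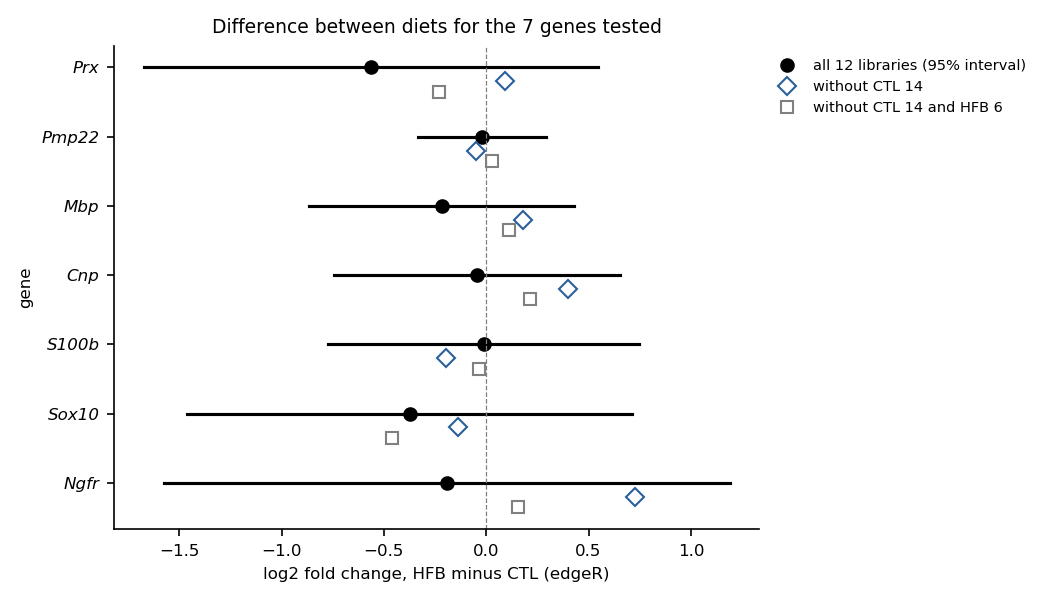
Log2 fold change, HFB minus CTL (x axis), of the 7 genes tested (y axis). Filled circles with lines give all 12 libraries with the 95% interval, diamonds the fit without CTL 14, and squares the fit without CTL 14 and HFB 6. Every interval includes 0, and the points of Prx, Mbp, Cnp and Ngfr cross 0 when CTL 14 is left out.

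The other Schwann and peripheral myelin genes were read beside the members in the same fit. Of the 22 genes, 8 passed the filter, and 0 of these 8 passed the adjusted test and 0 the unadjusted one. Their median log2 fold change was -0.29, against 0.00 over all genes tested, and no value without CTL 14 is given for them. The score of the 22 genes was 1.70 in HFB and 1.91 in CTL (mean log2 CPM, two-sided exact permutation p = 0.383). CTL 14 was the highest library for 4 of the 8 that passed the filter, and for 5 of the 7 members tested, against 15.2% of all 9382 genes. This was not particular to these genes. It was also highest for 2 of 3 lymphoid, 2 of 4 basal epithelium, 2 of 7 luminal epithelium and 1 of 4 endothelium genes tested. For adipocyte, fibroblast and skeletal muscle genes it was highest for 0 of 7, 0 of 6 and 0 of 7. Mal was at 35.7 CPM in CTL 14 and at most 18.3 CPM elsewhere. Egr2 was highest in HFB 6 at 45.9 CPM, with CTL 14 at 30.5 CPM. Gap43 and Gldn went the other way or stayed in range, since Gap43 was at 11.9 and 12.4 CPM in CTL 14 and HFB 6 against 36.8 to 73.9 CPM elsewhere, and Gldn was at 5.60 CPM in CTL 14 within its range of 2.45 to 24.0 CPM. Of the 13 genes of the list with counts that did not pass the filter, 9 had their highest level in CTL 14, against 15.3% of the 4175 genes with counts that did not pass it. Named after their values were seen, Pmp2, Ugt8, Ncmap, Cldn19 and Dhh were among these, with between 13 and 49 counts there, while Sox2, Pou3f1 and Ncam1 rest on 1, 4 and 6 counts. Gjb1 was highest in HFB 6, Drp2 and Fa2h in CTL 11 and Gfap in CTL 7. Erbb3, the neuregulin receptor of Schwann cells, passed the filter. It was at 2.80 CPM in CTL 14, within the 1.70 to 12.5 CPM of the other 10 libraries, and at 0.399 CPM in HFB 6, under that range.

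**Figure D3:**
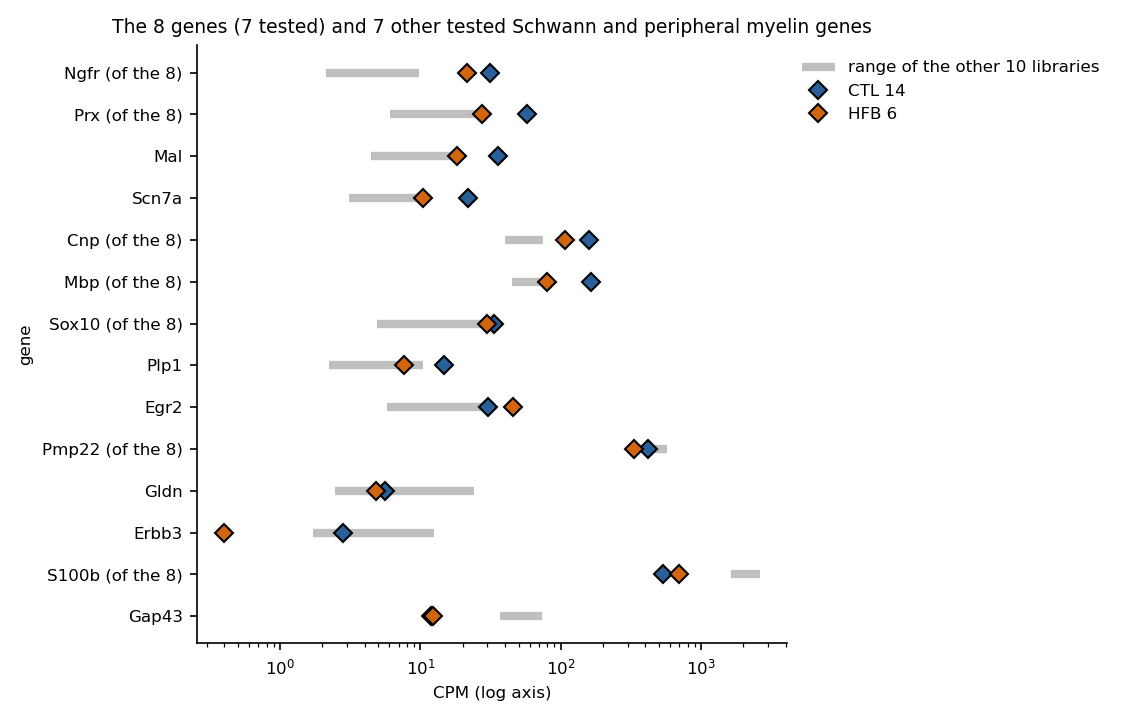
CPM (x axis, log scale) of the 7 members and 7 other Schwann and peripheral myelin genes that passed the filter (y axis), ordered by the ratio of CTL 14 to the median of the other 11 libraries. Diamonds are CTL 14 and HFB 6 and grey bars the range of the other 10. Ngfr, at 31.2 CPM in CTL 14, lies above its range, and S100b and Gap43 lie under theirs in both libraries.

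To describe which members varied together, 100 relations were computed on log2 CPM, namely the 28 pairs of members and each member against 8 marker scores and the total count, with permutation p-values from 100000 resamples adjusted over the 100. Members that vary together in whole glands share the make-up of the gland as well as the library. The level of Mbp was related to the score of the 22 other Schwann and peripheral myelin genes, with Pearson's r of 0.90 (permutation p = 0.00016, adjusted p = 0.0032) and Spearman's rho of 0.87 (permutation p = 0.00057) over 12 libraries. Without the 2 libraries farthest from the median, HFB 1 and CTL 14, r was 0.76. Within HFB it was 0.92 (exact permutation p = 0.0111, adjusted p = 0.185) and within CTL 0.94 (exact permutation p = 0.0236, adjusted p = 0.118). Without CTL 14 and HFB 6 it was 0.79 (permutation p = 0.0063, adjusted p = 0.126), so the relation no longer passed after adjustment. Other scores reached values of that size within a diet. Within CTL, Mbp had r of -0.94 with the fibroblast score (exact permutation p = 0.0181, adjusted p = 0.113) and -0.92 with the adipocyte score (exact permutation p = 0.053, adjusted p = 0.176). Within HFB, Mbp had r of 0.94 with the skeletal muscle score (exact permutation p = 0.0097, adjusted p = 0.185). Its r with the skeletal muscle score was 0.18 within CTL, 0.38 over 12 libraries (permutation p = 0.226, adjusted p = 0.329) and 0.68 without CTL 14 and HFB 6 (permutation p = 0.032, adjusted p = 0.327). With the endothelium score, highest in CTL 14, Mbp had r of 0.65 over 12 libraries (permutation p = 0.028, adjusted p = 0.073). This r was 0.26 without CTL 14 and HFB 6 (permutation test, adjusted p = 0.839). Prx and Mbp had r of 0.88 (permutation p = 0.00057, adjusted p = 0.0045) and rho of 0.73 (permutation p = 0.0081, adjusted p = 0.063), with r of 0.76 when HFB 3 and CTL 14 were left out and 0.70 and 0.93 within HFB and CTL. That call was lost without CTL 14 (r of 0.73, adjusted p = 0.065) and without CTL 14 and HFB 6 (r of 0.66, adjusted p = 0.327), by the permutation test. Prx also had r of -0.87 with S100b and -0.82 with the adipocyte score (permutation test, adjusted p = 0.0033 and 0.0049). Without CTL 14 these were -0.74 and -0.65 (adjusted p = 0.031 and 0.057, same test). Without CTL 14 and HFB 6 they were -0.63 and -0.52 (adjusted p = 0.327 and 0.463, same test). The values of Mag rest on too few counts for a correlation to be read.

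Sox10, the regulator of these genes in Schwann cells, was set against the same scores. Its r with the other Schwann score was 0.60 (permutation p = 0.037, adjusted p = 0.087) and fell to 0.34 without HFB 1 and CTL 14. With the score of luminal epithelium (Krt8, Krt18, Krt19, Epcam, Cdh1, Cldn4, Elf5 and Cldn3, the last at 0 counts in all libraries) r was 0.96 (permutation p = 1e-05, the smallest the resamples can give; adjusted p = 0.0010) and rho was 0.94 (permutation p = 9e-05). The same r of 0.96 was found without the 2 farthest libraries, HFB 1 and HFB 3, and without CTL 14 and HFB 6 (permutation p = 4e-05, adjusted p = 0.0040). It was 0.98 within HFB (exact permutation p = 0.0056, adjusted p = 0.185) and 0.96 within CTL (exact permutation p = 0.0028, adjusted p = 0.104). Of the 100 relations this was the one that passed the adjusted threshold without CTL 14 and HFB 6. The luminal score itself was 4.28 ± 0.92 in HFB and 4.76 ± 0.52 in CTL (SD, n = 6 each; two-sided exact permutation p = 0.284). Whether luminal cells supplied the Sox10 counts was not tested.

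For S100b and Ngfr the libraries CTL 14 and HFB 6 formed a cluster of their own, and r over all 12 libraries spans the gap between the clusters. For Cnp they were the highest libraries, at 159 and 107 CPM, but HFB 6 lay nearer to HFB 1, at 74.1 CPM, than to CTL 14. Each relation of these genes is given with and without CTL 14 and HFB 6. S100b had r of 0.96 with the adipocyte score over 12 libraries (permutation p = 0.00036, adjusted p = 0.0040) and 0.93 without CTL 14 (permutation p = 0.0030, adjusted p = 0.031). Over the other 10 libraries, without both, r was 0.60 (permutation p = 0.070, adjusted p = 0.350) and rho was 0.65 (permutation p = 0.050), so the call was lost. Over 12 libraries S100b also had r of 0.89 with the fibroblast score and -0.79 with the lymphoid score (permutation test, adjusted p = 0.023 and 0.030). Over the 10 libraries these were 0.08 and -0.06 (adjusted p = 0.961 for both, same test). In CTL 14 and HFB 6, where S100b was at 533 and 699 CPM, the summed level of the 7 adipocyte genes (Fabp4, Adipoq, Pnpla2, Cidec and Plin1 the highest) was 15137 and 18815 CPM, against 29125 to 36672 CPM elsewhere. All 7 adipocyte genes were lower in both libraries than in any of the other 10. The part of fat cells in the S100b values was not tested.

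Cnp and Ngfr had r of 0.95 over 12 libraries (permutation p = 4e-05, adjusted p = 0.0020) and 0.92 without CTL 14 (permutation p = 0.00030, adjusted p = 0.015). Over the same 10 libraries r was 0.81 (permutation p = 0.0054, adjusted p = 0.126) and rho was 0.89 (permutation p = 0.0011, adjusted p = 0.053). Their r with the lymphoid score over 12 libraries was 0.87 for Cnp (permutation p = 0.00069, adjusted p = 0.0049) and 0.89 for Ngfr (permutation p = 0.00052, adjusted p = 0.0045), and 0.82 and 0.83 without CTL 14 (permutation test, adjusted p = 0.031 for both). Over the 10 libraries it was 0.60 for Cnp (permutation p = 0.069, adjusted p = 0.350) and 0.64 for Ngfr (permutation p = 0.047, adjusted p = 0.327). Other scores gave values of similar size there, with r of -0.60 for Cnp and -0.65 for Ngfr with the adipocyte score (permutation p = 0.063 and 0.044) and -0.65 and -0.59 with the basal epithelium score (permutation p = 0.042 and 0.077), and none passed after adjustment. Over 12 libraries r with the adipocyte score was -0.92 for Cnp and -0.90 for Ngfr (permutation test, adjusted p = 0.0040 and 0.0032), and with the basal epithelium score -0.23 and -0.27 (adjusted p = 0.577 and 0.509). The basal score averages Krt14, Krt17, Trp63 and Oxtr, which parted in CTL 14 and HFB 6. Oxtr was at 2.10 and 0.797 CPM there, against 12.7 to 72.7 CPM elsewhere. Krt17 was at 81.3 and 67.4 CPM there, against 2.45 to 54.6 CPM elsewhere. The summed level of the 7 lymphoid genes in the table (Lck, Cd79b, Cd3g and Cd3e among the highest, none at 0 in all libraries) was 939 CPM in CTL 14 and 878 CPM in HFB 6, against 8.55 to 260 CPM elsewhere. It was 8.55 to 878 CPM over HFB and 9.64 to 939 CPM over CTL. Its part in the Cnp and Ngfr values was not tested.

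**Figure D4:**
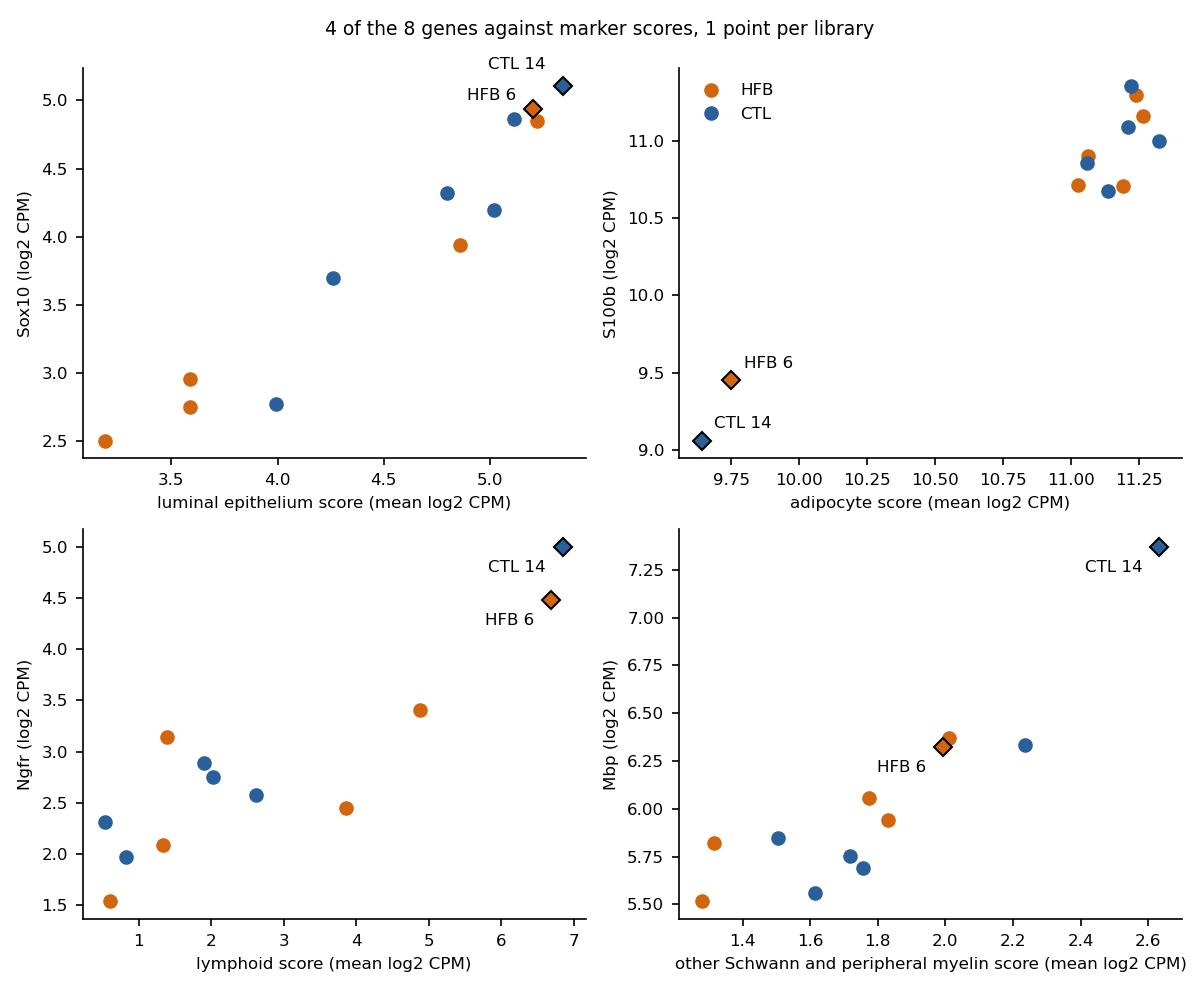
Log2 CPM of Sox10, S100b, Ngfr and Mbp (y axes) against the score of luminal epithelium, adipocyte, lymphoid and other Schwann and peripheral myelin genes (x axes, mean log2 CPM), with 1 point per library and diamonds for CTL 14 and HFB 6. Sox10 lies along a line in both diets, S100b falls into 2 clusters, and Ngfr and Mbp are highest in CTL 14.

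The genes most like each member were sought among 9011 tested genes with a mean of at least 5 CPM, by Pearson's r over 12 libraries, and are given as a description. They are not given for Mag, whose counts are too few. For Mbp they included Tipin (0.89, and 0.66 without CTL 14 and HFB 6) and Hnrnpc (0.88 and 0.55). Prx was most like Wdr5 (0.94 and 0.80), Prpf4 (0.91 and 0.75) and Cct5 (0.90 and 0.89). S100b was most like Aqp7, the glycerol channel of fat cells (0.99 and 0.94), Clmp (0.98 and 0.93) and Cd302 (0.98 and 0.74). Sox10 was most like the luminal keratins Krt19 (0.96 and 0.95) and Krt8 (0.96 and 0.95) and Lsr (0.96 and 0.95), a protein of epithelial cell corners. Cnp was most like Kat2a (0.98 and 0.94), Macroh2a1 (0.97 and 0.87) and Hnrnpm (0.96 and 0.78). Ngfr was most like Plekhg2 (0.97 and 0.93), Nubp1 (0.97 and 0.90) and Smap2 (0.96 and 0.84), and Pmp22 like Jtb (0.93 and 0.86), Cryz (0.91 and 0.80) and Proca1 (0.91 and 0.82).

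**Figure D5:**
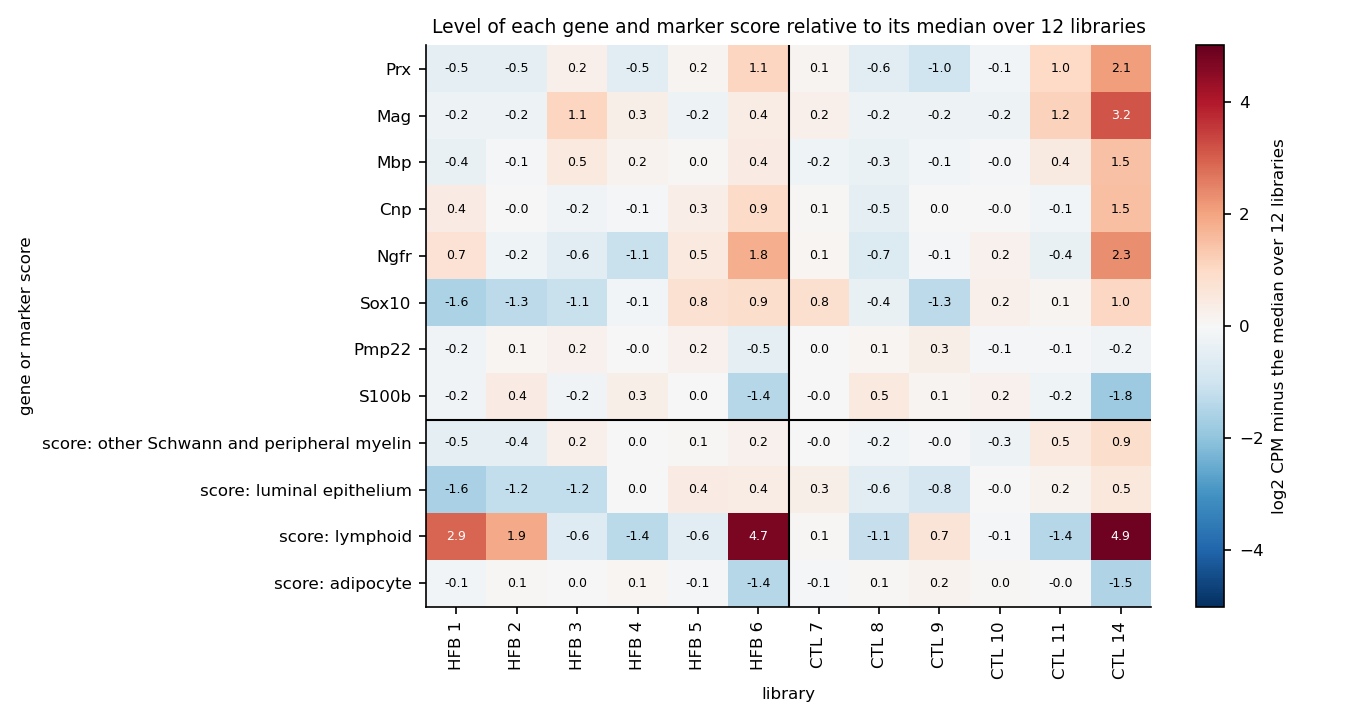
Log2 CPM of the 8 genes and 4 marker scores (rows) in 12 libraries (columns), each minus its median over the libraries, with HFB left and CTL right of the line. Prx, Mag and Mbp share their highest library, CTL 14, and are above their medians in CTL 11, Cnp and Ngfr are high in CTL 14 and HFB 6, S100b is low in both, and Sox10 runs with the luminal score.

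The ratio of members within a library showed how far the 8 genes were from moving as a block. The ratio of Mbp to S100b CPM was 17.4 times higher in CTL 14 than in CTL 8, where it was lowest. This range rests on both libraries that stood apart, since the highest ratio was 6.41 times the lowest without CTL 14 and 2.76 times without CTL 14 and HFB 6. The ratio of Mbp to Sox10 CPM varied 6.51-fold, from its lowest in CTL 7 to its highest in HFB 3, and neither is one of these libraries.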

How the data were processed

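RNA of 12 rat mammary glands was sequenced by the authors after extraction with a kit for lipid-rich tissue. The authors deposited raw counts of reads per gene for 16511 Entrez identifiers, with no normalization. The submitters' processing notes name bcl2fastq, CASAVA 1.8, TopHat, DESeq and the build rn4; the counting program, annotation and use of strand are not given in the sources used here, so reads shared with overlapping genes or close copies could not be separated. A symbol was found for 16351 identifiers in RefSeq's GRCr8 gene table. The paper gives this series as its RNA-seq of laser-microdissected epithelia from HBF and HBF + BPA offspring, whereas the labels give mammary glands of HFB and CTL offspring. The 2 descriptions could not be reconciled, and tissue and groups were taken from the labels alone. Over the 12 libraries the 7 adipocyte genes summed to 15137 to 36672 CPM and the 6 fibroblast genes to 15172 to 33167 CPM. The 8 luminal epithelium genes summed to 119 to 638 CPM. The libraries thus did not hold epithelial RNA alone, and the groups have no such check.

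Counts were tested with edgeR 4.0.16 (R 4.3.3; quasi-likelihood, TMM, filterByExpr, Benjamini-Hochberg over all genes tested, threshold 0.05). In simulated counts for the comparison of the diets (9382 genes, 200 changed) 84.1% of the changes of 4-fold size were recovered and 38.7% of those of 2-fold size, with 5 of 131 calls false. The simulated counts were drawn for each gene independently, so no simulated library stood apart in many genes at once, as CTL 14 and HFB 6 did. These shares are over all genes, and recovery for the members was not computed. CPM used the same TMM factors as the edgeR test, log2 CPM a prior count of 2. Correlations were run in Python 3.11.15. Alternatives were DESeq2 1.42.0, limma 3.58.1 (voom with quality weights), other scalings and filters, marker scores as covariates, and leaving out libraries. Leaving out CTL 14 and HFB 6 together and the lymphoid covariate were added after the data had been seen. Named genes are the 8 members, the 5 genes of highest mean CPM and those at 0 counts in each list, and the 3 genes most like each member, except where stated; some genes this rule names are not reported here. The members and lists were chosen with earlier results of these data known. The paired counts of libraries of 1 diet differed by more than sampling noise (chi-square per degree of freedom of at least 6.69 in 30 pairs), so all 12 were counted.

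Basal epithelium, fibroblast, skeletal muscle and endothelium lists served as scores. Their means in HFB and CTL were 3.83 and 4.13, 10.52 and 10.65, 8.00 and 7.50, and 5.20 and 5.49 (mean log2 CPM, n = 6 each; two-sided exact permutation p = 0.431, 0.552, 0.628 and 0.240).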

Additional observations from a re-analysis of the deposited data

Results flagged for a closer look

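In each diet the highest or lowest of the 6 libraries was compared with the rest by its gap to the nearest value, as a share of the whole range (Dixon's test at its 95% critical value). Of 32 groups of values, for 8 genes and 8 marker scores in both diets, 11 exceeded it, where chance alone gives about 1 in 20. CTL 14 stood apart as the highest control for Mag at 7.36 CPM (next 1.26), Mbp at 165 CPM (next 80.0), Cnp at 159 CPM (next 58.2) and Ngfr at 31.2 CPM (next 6.64). HFB 6 stood apart as the highest HFB library for Prx at 27.5 CPM (next 15.1), and HFB 3 for Mag at 1.16 CPM (next 0.399), which is 3 counts against 1. Among the marker scores, the adipocyte score was lowest in HFB 6 at 9.75 (next 11.03) and in CTL 14 at 9.64 (next 11.06). In CTL 14 the fibroblast score was lowest at 9.75 (next 10.73) and the lymphoid score highest at 6.85 (next 2.62). The basal epithelium score was lowest in HFB 1 at 2.59 (next 3.81). Prx in CTL 14, and S100b in both libraries, did not exceed it in this test.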

How the results depend on the processing

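In the alternatives run, 0 genes were called between the diets, and the smallest adjusted p of any tested gene of the 8 was 0.688. Of 153 values of the 7 genes under these alternatives 29 changed sign, none of them past the threshold. Leaving out 1 library at a time gave log2 fold changes (HFB minus CTL) of -0.89 to 0.089 for Prx, -0.072 to 0.055 for Pmp22, -0.32 to 0.18 for Mbp, -0.23 to 0.40 for Cnp, -0.20 to 0.15 for S100b, -0.69 to -0.14 for Sox10 and -0.75 to 0.73 for Ngfr. Leaving out CTL 14 turned Prx, Mbp, Cnp and Ngfr, and leaving out HFB 6 took Ngfr to -0.75 from -0.19. With limma the values of Pmp22, Mbp and Cnp were 0.0075, 0.13 and 0.097, and Prx was at -0.17 against -0.56. Sox10 was at -0.96 with limma against -0.37 with edgeR (limma's unadjusted p = 0.066, adjusted p = 0.778). The adipocyte covariate gave 0.056 for Cnp and 0.042 for S100b, the skeletal muscle covariate 0.020 for S100b, and the lymphoid covariate 0.0060 for Pmp22 and 0.23 for S100b. Without CTL 14 and HFB 6 the values were -0.23 for Prx, back at its first sign, and 0.026 for Pmp22, 0.11 for Mbp, 0.21 for Cnp and 0.15 for Ngfr. Genes at an unadjusted p under 0.05 numbered 135 to 587 when 1 library was left out, 587 of them without CTL 14, 684 with the adipocyte covariate, and 430 without CTL 14 and HFB 6, against 220. Relations past the adjusted threshold numbered 30 of 100 over 12 libraries, 0 within HFB, 0 within CTL, 11 without CTL 14 and 1 without both. Within a diet, 6 libraries allow so few permutations that passing after adjustment over 100 relations was hardly possible. Sox10 with the luminal score, at r of 0.96 within CTL, had exact permutation p = 0.0028 and adjusted p = 0.104. The counts within a diet therefore do not tell whether the relations held there. The cause of the lower counts without CTL 14 and HFB 6 was not tested. No paired analysis was possible because no library number occurs in both groups. Depth limits Mag, which had at most 3 counts outside CTL 14.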

Other observations

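Cnp and the gene most like it, Kat2a, lie on the same chromosome, 10, with 4 protein-coding genes between them in the RefSeq gene order (GRCr8). This was noticed after the values were seen, and its part in their shared pattern was not tested.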
